A study of Mus musculus with 16 samples.

Results

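Genes of neutrophil granules, of the neutrophil cytosol and of its surface were followed in whole-lung RNA of C57BL/6 mice. The set was given by name and held 10 genes: Ngp, Camp, Ltf, S100a8, S100a9, Retnlg, Cxcr2, Elane, Mpo and Ly6g. All array spots annotated to these names were taken, in all 16 samples, which gave 11 of the 62976 spots and 9 of the 20863 named genes. Camp and Mpo had 2 spots each. No spot used here carried the symbol Ly6g, which encodes a neutrophil surface protein, so it is not analysed here. All mice were 9 to 12 weeks old, and all were given an oligonucleotide intratracheally on 3 occasions, at 4 days and again at 2 days ahead of the challenge and once more 4 days later. The oligonucleotide was either a target site blocker against Cav1 (CAV1 TSB, 5 mg/kg), which covers a microRNA binding site in the Cav1 transcript, or a control formulated for use in vivo (Control TSB), whose dose the labels do not give. The challenge was bleomycin at 1 unit/kg, a drug that injures the lung and leaves fibrosis, or phosphate-buffered saline (PBS). Below, PBS control (n = 2), PBS CAV1 (n = 2), bleomycin control (n = 6) and bleomycin CAV1 (n = 6) name the 4 groups by challenge and blocker. The labels give neither the time of lung collection nor whether each array is a separate animal, so each p-value reflects only how far these samples differ, which may be technical.

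Neutrophils build their granules in the bone marrow in an order. Primary (azurophil) granules come early, in promyelocytes, and hold myeloperoxidase (Mpo) and neutrophil elastase (Elane). Secondary granules come later and hold lactotransferrin (Ltf), the cathelicidin precursor (Camp) and neutrophilic granule protein (Ngp). Transcripts of most granule proteins decline before a neutrophil leaves the marrow, whereas those of the cytosolic pair S100a8 and S100a9 (calprotectin) and of the chemokine receptor Cxcr2 mark mature cells in blood and tissue. Retnlg encodes a resistin-like protein of mature neutrophils. Ltf is also made by airway gland epithelium.

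The promoters of 5 of the genes are shown because their transcripts carry the results below: Ngp for its difference after bleomycin, and the pairs S100a8 and S100a9, and Camp and Mpo, for their joint variation between arrays. Each runs from 250 bases before to 50 bases after the transcript start, 5′ to 3′ on the gene's own strand, from RefSeq on GRCm38.p6, in which all 9 measured genes had an entry. Capitals mark letters like those bound by C/EBP factors (TTGCNNAA) or by PU.1 (GAGGAAGT), both regulators of granulocyte genes, searched on both strands; no overlap between the motifs occurs in these 5.
Ngp (chr9:110419558-110419857, plus strand): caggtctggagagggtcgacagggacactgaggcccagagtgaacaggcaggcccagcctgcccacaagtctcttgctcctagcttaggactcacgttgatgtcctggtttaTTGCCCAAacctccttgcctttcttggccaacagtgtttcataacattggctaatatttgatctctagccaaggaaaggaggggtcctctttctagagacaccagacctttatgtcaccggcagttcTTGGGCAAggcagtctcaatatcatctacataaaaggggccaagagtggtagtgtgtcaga
S100a8 (chr3:90668821-90669120, plus strand): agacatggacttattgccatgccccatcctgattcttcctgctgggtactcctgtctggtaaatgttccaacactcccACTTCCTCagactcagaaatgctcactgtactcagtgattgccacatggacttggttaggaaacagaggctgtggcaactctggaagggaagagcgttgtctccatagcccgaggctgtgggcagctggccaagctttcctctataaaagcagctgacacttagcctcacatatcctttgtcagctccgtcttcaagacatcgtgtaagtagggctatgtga
S100a9 (chr3:90695672-90695971, minus strand): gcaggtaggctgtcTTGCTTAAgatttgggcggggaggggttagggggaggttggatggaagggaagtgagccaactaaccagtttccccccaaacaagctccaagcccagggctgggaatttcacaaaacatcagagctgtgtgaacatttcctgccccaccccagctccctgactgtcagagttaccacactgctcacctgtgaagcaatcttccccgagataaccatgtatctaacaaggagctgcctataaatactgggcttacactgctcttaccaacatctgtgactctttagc
Camp (chr9:109849407-109849706, minus strand): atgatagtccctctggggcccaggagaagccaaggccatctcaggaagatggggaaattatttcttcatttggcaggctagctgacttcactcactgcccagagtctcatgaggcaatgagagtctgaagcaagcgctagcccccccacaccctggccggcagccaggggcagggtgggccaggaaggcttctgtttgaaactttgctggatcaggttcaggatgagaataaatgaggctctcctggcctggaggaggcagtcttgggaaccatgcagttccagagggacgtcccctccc
Mpo (chr11:87793534-87793833, plus strand): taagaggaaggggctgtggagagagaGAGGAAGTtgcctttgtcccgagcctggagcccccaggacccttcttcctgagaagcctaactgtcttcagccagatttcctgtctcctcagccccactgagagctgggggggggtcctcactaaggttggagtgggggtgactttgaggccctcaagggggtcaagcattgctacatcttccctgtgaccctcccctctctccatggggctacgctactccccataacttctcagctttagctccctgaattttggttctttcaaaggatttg
The C/EBP letters were found in 4 of the 9 promoters (Ngp, Ltf, S100a9 and Retnlg) and in 10.8% of 32851 RefSeq promoters of the same length. In Ngp they stood at -138 and -11 from the start, in S100a9 at -236. The PU.1 letters were found in 3 of the 9 (S100a8 at -172, Elane at -85 and Mpo at -224) and in 3.2% of all promoters. Camp and Cxcr2 had neither run of letters in this window. A match here is a description of the sequence only.

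Values are log2 intensities, and a difference of 1 is a 2-fold difference in signal. The 9 genes lay between the 58.6th and the 99.8th percentile of the spots of their arrays, so all were above most of the array, whose median was 6.51 to 6.52. The number of arrays limits the precision. The tissue was lung by its markers: 9 genes of lung epithelium and endothelium averaged 14.91 to 15.54 in the 16 arrays. In RNA of a whole lung, fewer neutrophils and less of a transcript per neutrophil cannot be told apart.

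Several arrays stood apart from their groups, and results that rest on them are given with and without them. Where a PBS array is left out, its group is a single array, assumed to vary like the other groups. A call gained or lost in such a fit therefore does not by itself show that the result rested on the array left out. PBS control array 2 had the lowest median correlation with the other arrays (0.979, others 0.984 to 0.992) and Elane at 11.45, against 8.03 to 8.94 in the other 15. PBS control array 1 had the highest Camp (11.68) and Mpo (8.70), and also Dntt at 11.09 and Rag1 at 9.87, genes of lymphocyte precursors, which did not pass 7.24 and 7.06 elsewhere. Its mean over 8 B precursor markers, which include Dntt and Rag1, was 9.42, against 8.01 to 8.42 in the others. Bleomycin CAV1 array 1 had the highest S100a8 (14.47), S100a9 (16.61) and Cxcr2 (9.16), and the highest mean of 10 erythroid and platelet markers (14.02, others 12.61 to 13.73). Its mean of 9 markers of monocytes and recruited macrophages was 10.41, within the range of the PBS arrays (10.36 to 10.81) and below the other bleomycin arrays (11.48 to 12.11). Squamous epithelium and skeletal muscle markers were low in 5 arrays, both of PBS CAV1, bleomycin control 2 and 6, and bleomycin CAV1 3.

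**Figure D1:**
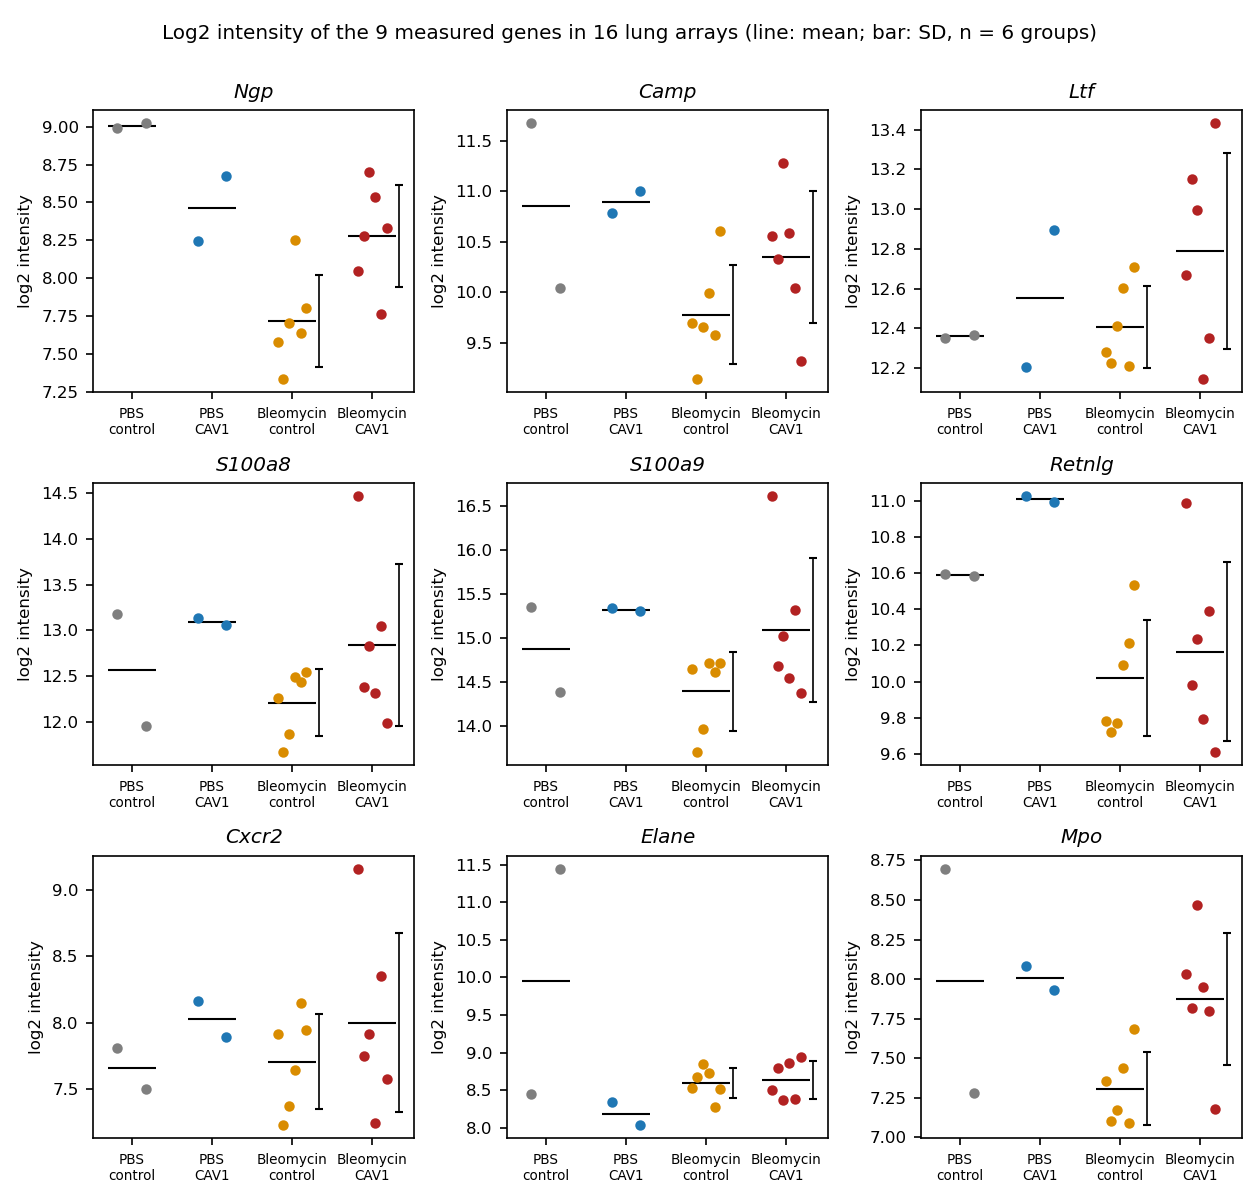
Log2 intensity of the 9 measured genes in each of 16 arrays (points), by group, with the group mean (line) and the SD between arrays where n = 6 (bar); each panel has its own scale. Ngp is high in both PBS control arrays and low in bleomycin control, and single arrays stand out in Elane (PBS control, 11.45) and in S100a8, S100a9 and Cxcr2 (bleomycin CAV1, 14.47, 16.61 and 9.16).

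Bleomycin against PBS was compared under each blocker and averaged over both, which asks how the injury changed these transcripts. Under the control blocker Ngp was lower after bleomycin, and it was the only 1 of the 9 genes to pass an adjusted p under 0.05 (limma, Benjamini-Hochberg over 20304 genes). In that comparison 2.41% of all genes tested were called, and 0.448% were called lower. Averaged over the blockers, Ngp and Retnlg were called lower, 2 of 9 genes against 5.93% of all genes called and 1.68% called lower. Under the CAV1 blocker none of the 9 was called, against 0.517% of all genes, and 1 of them (Retnlg) had an unadjusted p under 0.05, against 14.8% of all genes. None of the 9 was called higher in any of these 3 comparisons. The median change of the 9 genes was -0.57 with the control blocker, -0.18 with the CAV1 blocker and -0.41 averaged, where the medians of all genes were 0.03, -0.01 and 0.01.

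Among the secondary granule genes, Ngp stood at 8.99 and 9.03 in the PBS control arrays and at 8.25 and 8.68 in the PBS CAV1 arrays. In bleomycin control it ran from 7.33 to 8.25 with a median of 7.67, and in bleomycin CAV1 from 7.77 to 8.70 with a median of 8.31. Both PBS control arrays were thus above all 12 bleomycin arrays, while the PBS CAV1 arrays lay among the bleomycin CAV1 arrays. The difference between bleomycin and PBS under the control blocker was -1.29 (SE 0.23, 95% interval -1.78 to -0.80), or 2.45-fold lower, with a limma adjusted p of 0.0184. Under the CAV1 blocker it was -0.18 (95% interval -0.67 to 0.31, adjusted p 0.759), and averaged it was -0.74 (SE 0.16, adjusted p 0.0141). The order of group means was PBS control 9.01 ± 0.03 (SD, n = 2), PBS CAV1 8.46 ± 0.30 (n = 2), bleomycin CAV1 8.28 ± 0.34 (n = 6) and bleomycin control 7.72 ± 0.31 (n = 6), and no neighbours in it differed past the threshold. Without PBS control array 2 the difference under the control blocker was -1.27 with an adjusted p of 0.117, and without PBS CAV1 array 2 the averaged adjusted p was 0.0966. In each comparison the other 15 fits with 1 array left out kept the call, and over all alternatives the adjusted p ran from 0.0076 to 1 under the control blocker and from 0.00625 to 0.144 averaged.

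Camp, whose product is cleaved to an antimicrobial peptide, was at 11.68 and 10.04 in PBS control, 10.79 and 11.01 in PBS CAV1, 9.14 to 10.61 (median 9.68) in bleomycin control and 9.32 to 11.28 (median 10.44) in bleomycin CAV1. The groups overlapped, since PBS control array 2 lay within the bleomycin control range. The difference under the control blocker was -1.08 (SE 0.46, adjusted p 0.264). It was -1.90 without PBS control array 2 and -0.26 without PBS control array 1. The second Camp spot followed the brighter one (Pearson r 0.99 over 16 arrays, as a description) and gave -1.04. Averaged over the blockers Camp differed by -0.81 (adjusted p 0.189), by -1.22 without PBS control array 2 and by -0.40 without PBS control array 1. Ltf, an iron-binding protein, was at 12.35 and 12.37 in PBS control and 12.20 and 12.90 in PBS CAV1, and ran from 12.21 to 12.71 (median 12.35) in bleomycin control and from 12.14 to 13.44 (median 12.83) in bleomycin CAV1. All 4 groups overlapped except that the PBS control pair lay close together inside the others. Its difference was 0.05 under the control blocker (95% interval -0.54 to 0.64) and 0.24 under the CAV1 blocker (95% interval -0.35 to 0.83).

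Retnlg stood at 10.59 and 10.58 in PBS control and at 11.03 and 10.995 in PBS CAV1. It ran from 9.72 to 10.53 (median 9.94) in bleomycin control and from 9.61 to 10.99 (median 10.11) in bleomycin CAV1. Within each blocker every bleomycin array was below both PBS arrays, by a narrow gap in bleomycin control array 6 (10.53) and bleomycin CAV1 array 1 (10.99). Ngp and Retnlg were the 2 of 9 genes whose groups did not overlap under the control blocker, against 12.6% of all genes. Under the CAV1 blocker the 2 were Retnlg, lower, and Elane, higher, against 20.7% of all genes. The Retnlg difference was -0.57 (SE 0.28, adjusted p 0.343) with the control blocker, -0.85 (SE 0.28, adjusted p 0.17) with the CAV1 blocker and -0.71 (SE 0.20, adjusted p 0.0497) averaged. The averaged call lay at the threshold: 2 of 16 fits with 1 array left out kept it, those without bleomycin CAV1 array 1 (-0.79, adjusted p 0.00539) and without bleomycin control array 6, and the highest adjusted p was 0.194, without PBS CAV1 array 1. Without bleomycin CAV1 array 1 it was also called under the CAV1 blocker (-1.01, adjusted p 0.024). Over all alternatives its averaged adjusted p ran from 0.00539 to 0.451.

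The cytosolic pair and the receptor showed wide spreads. S100a9 was at 15.35 and 14.38 in PBS control, 15.34 and 15.30 in PBS CAV1, 13.70 to 14.72 (median 14.63) in bleomycin control and 14.38 to 16.61 (median 14.85) in bleomycin CAV1. S100a8 was at 13.18 and 11.95 in PBS control, 13.14 and 13.05 in PBS CAV1, 11.66 to 12.54 (median 12.35) in bleomycin control and 11.99 to 14.47 (median 12.60) in bleomycin CAV1. In both genes PBS control array 2 was low and lay inside the bleomycin control range, and bleomycin CAV1 array 1 was above all other arrays. S100a8 differed by -0.36 under the control blocker (95% interval -1.40 to 0.68) and -0.26 under the CAV1 blocker (95% interval -1.30 to 0.78), and S100a9 by -0.48 (95% interval -1.47 to 0.51) and -0.23 (95% interval -1.22 to 0.76). Cxcr2, which draws neutrophils along gradients of CXCL chemokines, was at 7.81 and 7.51 in PBS control and at 8.17 and 7.89 in PBS CAV1. It ran from 7.23 to 8.15 (median 7.78) in bleomycin control and from 7.25 to 9.16 (median 7.84) in bleomycin CAV1, so that all groups overlapped except the 2 PBS pairs. Its differences were 0.05 (95% interval -0.73 to 0.83) and -0.03 (95% interval -0.81 to 0.75).

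Of the primary granule genes, Elane, the neutrophil elastase, was at 8.45 and 11.45 in PBS control, 8.34 and 8.03 in PBS CAV1, 8.27 to 8.84 (median 8.61) in bleomycin control and 8.37 to 8.94 (median 8.64) in bleomycin CAV1. A single array, PBS control 2, held the high value, and the other PBS control array lay within the bleomycin ranges. The mean of 7 other primary granule genes on that array was 9.14, the lowest of the 16 (others 9.30 to 9.58), and Mpo there was 7.28. The Elane difference under the control blocker was -1.35 (SE 0.48, adjusted p 0.166). It was 0.15 without PBS control array 2 and -2.85 without PBS control array 1 (limma adjusted p 1.43e-05), where array 2 stands alone for its group and 20.2% of all genes were called, so array 2 decides its value. Mpo, which makes hypochlorous acid in the granule, was at 8.70 and 7.28 in PBS control, 8.08 and 7.93 in PBS CAV1, 7.09 to 7.69 (median 7.26) in bleomycin control and 7.18 to 8.47 (median 7.88) in bleomycin CAV1. Its difference under the control blocker was -0.68 (SE 0.31, adjusted p 0.307), and 0.03 without PBS control array 1. Averaged, Mpo differed by -0.41 (adjusted p 0.388), by -0.76 without PBS control array 2 and by -0.05 without PBS control array 1. The dimmer Mpo spot, at 5.96 to 6.82, gave -0.28 under the control blocker, and the spots correlated at r 0.76.

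Under the control blocker, 4 of the 9 genes had an unadjusted p under 0.05, all lower (Ngp, Elane, Camp and Mpo). Over all genes the share was 15.9% in either direction and 5.41% lower. With 1 array left out Ngp stayed between -1.40 and -1.21. Elane was at 0.15 without PBS control array 2, and Camp at -0.26 and Mpo at 0.03 without PBS control array 1. With the other PBS control array left out instead, Elane, Camp and Mpo were at -2.85, -1.90 and -1.39. Camp and Mpo vary together, so they are not separate observations. Markers of other cells moved in the same comparison. All 10 blood markers measured were lower, 1 of them called (Hbb-bt, a haemoglobin chain, -0.71, adjusted p 0.0491), with a median of -0.61. That call held in 3 of the 16 fits with 1 array left out, with an adjusted p of up to 0.472 without PBS control array 2. The group ranges of their mean were 13.41 to 13.73 in PBS control and 12.61 to 13.09 in bleomycin control, without overlap. With the mean of 9 of these markers (all but Ppbp, which is also a CXCR2 ligand) as a covariate the Ngp difference was -1.19 (adjusted p 0.778), and the averaged ones were -0.69 for Ngp (adjusted p 0.136) and -0.49 for Retnlg (adjusted p 0.388). Calls were fewer over all genes too. With this covariate 0 of 20304 genes were called under the control blocker and 156 averaged, against 489 and 1204 without it. Of 9 monocyte and macrophage markers all 9 were higher and 5 were called, with a median of 1.03. Without PBS control array 2 none of them was called, at a median of 1.41, and Trem2 was called in 2 of the 16 fits with 1 array left out. Of 9 resident alveolar macrophage markers 8 were lower, 2 of them called (Marco -0.99, Krt79 -1.52), and both calls were lost without PBS control array 2 (adjusted p 0.0614 and 0.243). All 8 T and NK cell markers were lower, 1 of them called (Cd3e, a subunit of the T cell receptor complex, -0.63, adjusted p 0.0302, and 0.111 without PBS control array 2), with a median of -0.57, as over the 9 neutrophil genes. The markers of skeletal muscle (12 of 12 lower, median -1.88), adipocytes (6 of 6, median -1.30), squamous epithelium (12 of 12, median -0.71), B precursors (6 of 8, median -0.53), eosinophils (6 of 6, median -0.32) and mast cells (5 of 6, median -0.30) had no called member. With the skeletal muscle or the squamous marker mean as a covariate, Ngp was at -1.37 and -1.31 (adjusted p 0.0304 and 0.0259). The part of the other cells in the results for the 9 genes was not tested.

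PBS control array 2 and bleomycin CAV1 array 1 were also both left out, a choice made after the values were seen. They stood apart partly in the 9 genes themselves, so this fit is no separate test of these genes. PBS control array 1, the highest in Camp and Mpo, then stood alone for its group. The averaged differences were -1.24 for Camp, -0.78 for Mpo, -0.71 for Ngp, -0.79 for Retnlg and -0.78 for S100a8. S100a9 differed by -0.75 and Elane by 0.31. With only PBS control array 1 left out instead, Camp differed by -0.40 and Mpo by -0.05.

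**Figure D2:**
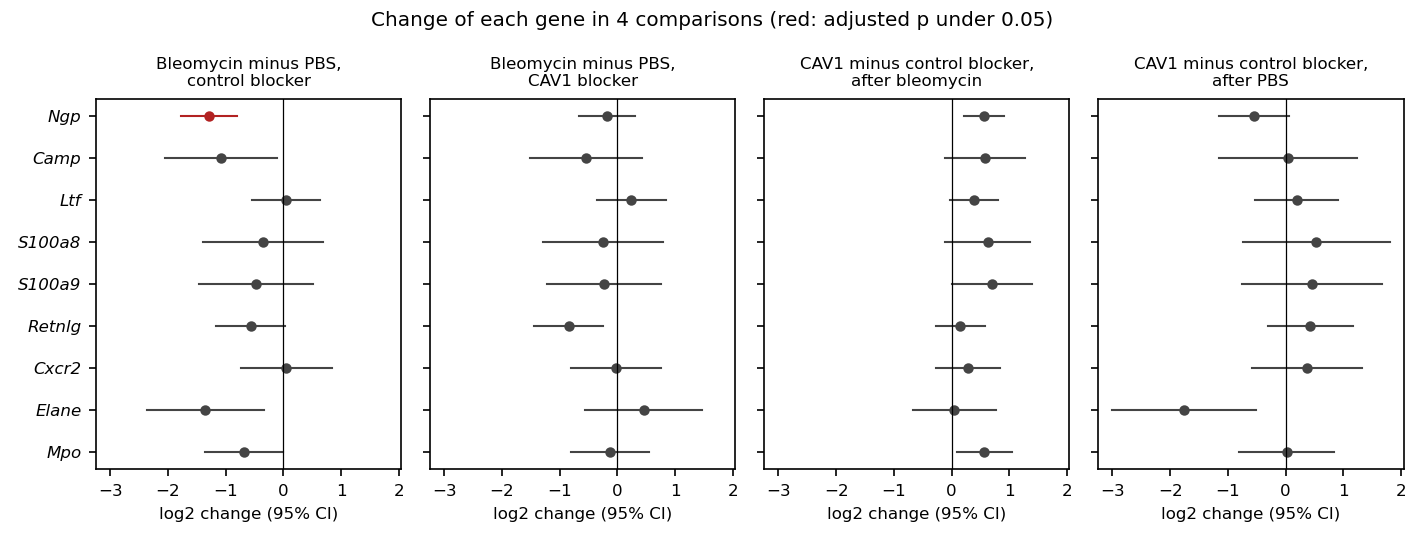
Log2 change of the 9 genes with its 95% confidence interval in 4 comparisons, from the fit of 1 mean per group to 16 arrays, with calls at an adjusted p under 0.05 in red. Ngp under the control blocker (-1.29) is the only called value, and all 9 points lie above 0 for the CAV1 against the control blocker after bleomycin.

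The CAV1 blocker was compared with the control blocker after bleomycin, the comparison that the series title names. All 9 genes were higher with the CAV1 blocker, with a median of 0.56, where the median of all genes was -0.01 and 45.6% of all genes were higher. None of the 9 passed the adjusted threshold, against 1.61% of all genes called and 1.20% called higher. The 3 genes with an unadjusted p under 0.05, against 9.08% of all genes and 4.48% in the upward direction, were Ngp, Mpo and S100a9. The 9 genes share their arrays and vary together, so the common direction is not that many separate observations. All 9 genes overlapped between the 2 groups, where 2.33% of all genes did not.

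Ngp was 0.56 higher (SE 0.16, 95% interval 0.21 to 0.91, 1.47-fold, adjusted p 0.141). 4 of the 6 bleomycin CAV1 arrays lay above the highest bleomycin control array. With 1 array left out the value stayed between 0.47 and 0.67, and it passed the threshold without bleomycin CAV1 array 5 (adjusted p 0.047) and without bleomycin control array 4 (adjusted p 0.0415). Mpo was 0.57 higher (SE 0.22, 1.48-fold, adjusted p 0.394), and its dimmer spot 0.33. Camp was 0.57 higher (SE 0.32, adjusted p 0.716) and Ltf 0.38 (SE 0.20, adjusted p 0.632). Elane, at 0.04 (95% interval -0.67 to 0.76), was nearest to 0.

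The differences of the calprotectin pair and the surface receptor were smaller here when a single array was left out, and least remained for Cxcr2. S100a9 was 0.70 higher (SE 0.33, adjusted p 0.55) and S100a8 0.63 (SE 0.35, adjusted p 0.695). Without bleomycin CAV1 array 1 these were 0.40 and 0.30, Cxcr2 went from 0.29 to 0.06 and Retnlg from 0.15 to -0.02. Ngp was 0.61 and Mpo 0.53 in the same fit, so these 2 granule genes moved by less than 0.1 and the calprotectin pair by more. Whether the 2 sets of genes differ in this was not tested.

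Blood markers differed in the same direction. All 10 were higher with the CAV1 blocker after bleomycin, 1 of them called (Hbb-bt 0.57, adjusted p 0.03, called in 8 of 16 fits with 1 array left out), with a median of 0.53. Their group ranges were 12.61 to 13.09 in bleomycin control and 12.93 to 14.02 in bleomycin CAV1. With the mean of the same 9 of them as a covariate S100a8 was at 0.13, S100a9 at 0.19, Cxcr2 at -0.05 and Retnlg at -0.15, while Ngp was at 0.49, Camp at 0.66 and Mpo at 0.73, none of them called. In that fit 113 of 20304 genes were called, against 327 without the covariate. The 9 monocyte and macrophage markers were all lower, 1 of them called (Ms4a7 -1.05, adjusted p 0.0236, called in 10 of 16 fits with 1 array left out), with a median of -0.48, and -0.36 without bleomycin CAV1 array 1. Of the skeletal muscle markers 11 of 12 were higher (median 0.56), of the squamous 10 of 12 (median 0.57) and of the adipocyte 6 of 6 (median 0.30), with none called. The part of these cells in the results was not tested.

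**Figure D3:**
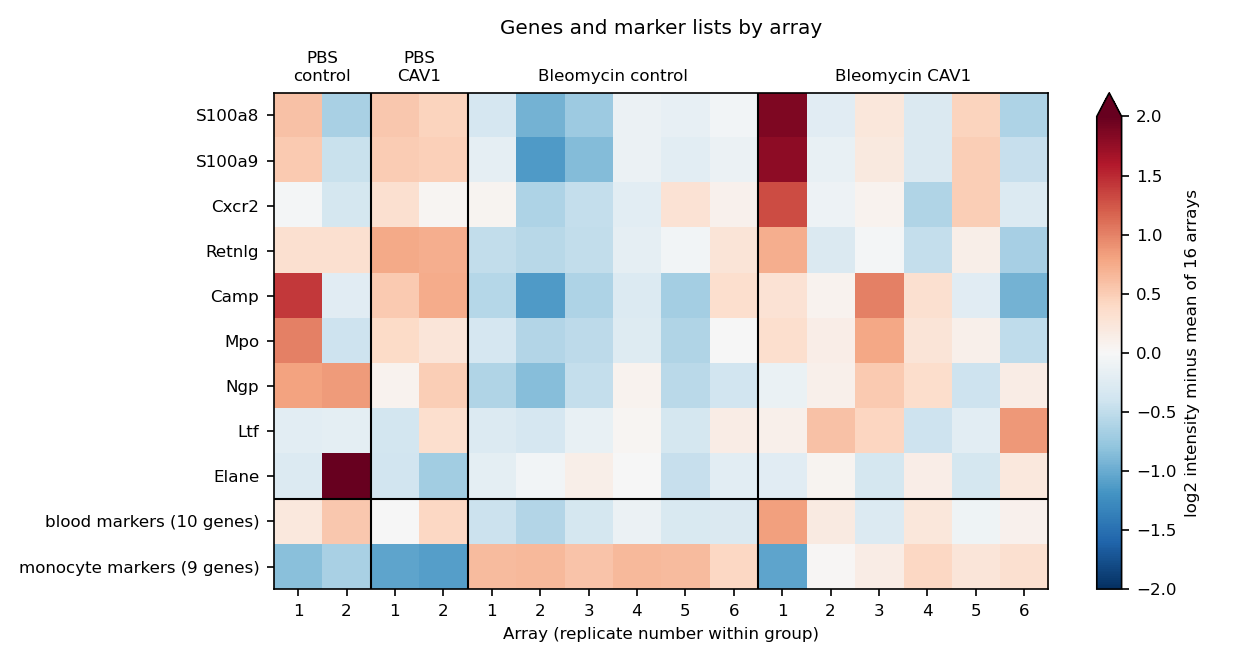
Log2 intensity of each gene minus its mean over 16 arrays, by array (columns, replicate numbers within the 4 groups), with the means of 10 blood and 9 monocyte and macrophage markers below. The S100a8, S100a9 and Cxcr2 rows are highest in bleomycin CAV1 array 1, which has the blood marker mean of 14.02 and the monocyte marker mean of 10.41, and the colour scale ends at 2, which Elane in PBS control array 2 exceeds.

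After PBS, the CAV1 and control blockers were compared over 2 arrays each. None of the 9 genes was called, against 0.310% of all genes. 7 were higher and 2 lower with the CAV1 blocker, with a median of 0.19 against 0.04 over all genes. The groups did not overlap for 4 of the 9 genes, with Ngp and Elane lower and Retnlg and Cxcr2 higher, against 38.5% of all genes, so this share is near the background. Elane, at -1.76 (SE 0.58, adjusted p 0.31), was the only 1 of the 9 with an unadjusted p under 0.05, against 12.8% of all genes. Its value was -0.26 without PBS control array 2 and -3.26 without PBS control array 1 (adjusted p 1.52e-05), where the high array stands alone and 19.9% of all genes were called.

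The interaction asks whether the bleomycin difference depended on the blocker. No gene on the array was called (0% of 20304), and 9.22% had an unadjusted p under 0.05. The count of called genes changed when any 1 PBS array, of either blocker, was left out. Its group is then a single array, so such a fit does not show which array the count rested on. Among the 9, Ngp (1.11, SE 0.33, adjusted p 0.497) and Elane (1.81, SE 0.67, adjusted p 0.497) had unadjusted p-values under 0.05. The Elane value was 0.31 without PBS control array 2 and 3.31 without PBS control array 1 (adjusted p 5.94e-05), a value that compares the single high array with the rest. The Ngp value stayed between 0.89 and 1.32 with 1 array left out and was called in none of the 16 fits. That Ngp was called under 1 blocker and not under the other is therefore no shown difference between the blockers.

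Many of the genes varied together between arrays. Over the 36 pairs of the 9 genes, 14 had a Pearson and 19 a Spearman adjusted permutation p under 0.05 (two-sided, Benjamini-Hochberg over the 36, 16 arrays). S100a8 and S100a9 had r 0.988 and rho 0.979, each with a permutation p of 1e-05, the smallest that the permutations can give (adjusted 0.00018 and 0.00036), and r 0.978 without the 2 arrays farthest from the median. Camp and Mpo had r 0.946 and rho 0.909 (permutation p 1e-05 and 2e-05, adjusted 0.00018 and 0.00036), and r 0.901 without the 2 farthest. Within groups, as deviations from the group means, these correlations were 0.987 and 0.948. Both pairs thus held inside the groups as well as between them, and Camp belongs to secondary and Mpo to primary granules. The 2 pairs were not separate. With S100a8, Camp had r 0.617 and rho 0.735 (adjusted permutation p 0.0291 and 0.00504). Mpo had r 0.675 and rho 0.782 with it (adjusted permutation p 0.0153 and 0.00329). Both also passed by r and rho with S100a9 (r 0.612 and 0.665), and Camp with Retnlg (r 0.639). Neither passed with Cxcr2 (r 0.286 and 0.351), and Mpo passed with Retnlg by rho only.

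Cxcr2 followed S100a9 (r 0.885, rho 0.782, permutation p 3e-05 and 0.00054, adjusted 0.00036 and 0.00324), less closely without the 2 farthest arrays (r 0.695). Retnlg followed S100a8 (r 0.763, rho 0.818, permutation p 0.0002 and 0.00011, adjusted 0.0012 and 0.00132, r 0.721 without the 2 farthest). Ngp correlated with Camp (r 0.674, rho 0.644, permutation p 0.00425 and 0.00844, adjusted 0.0153 and 0.0203) and not past the threshold with S100a8 (r 0.207, rho 0.276, adjusted 0.6 and 0.413). The Ngp and Camp relation was weaker within groups (r 0.430). Ltf had r between -0.08 and 0.27 with each of the other 8 genes. Elane had r between -0.40 and 0.37. By ranks it ran against Cxcr2 (rho -0.729, permutation p 0.00201, adjusted 0.00603). Their r was -0.350 (permutation p 0.132, adjusted 0.279), -0.491 without the 2 farthest and -0.330 within groups. Elane also ran by ranks against S100a8 (rho -0.715, adjusted permutation p 0.00678), S100a9 (rho -0.665, adjusted 0.0156) and Retnlg (rho -0.606, adjusted 0.0282). None of these Elane pairs passed the threshold by Pearson r. The arrays share their normalization and tissue make-up, and blood markers vary among them.

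**Figure D4:**
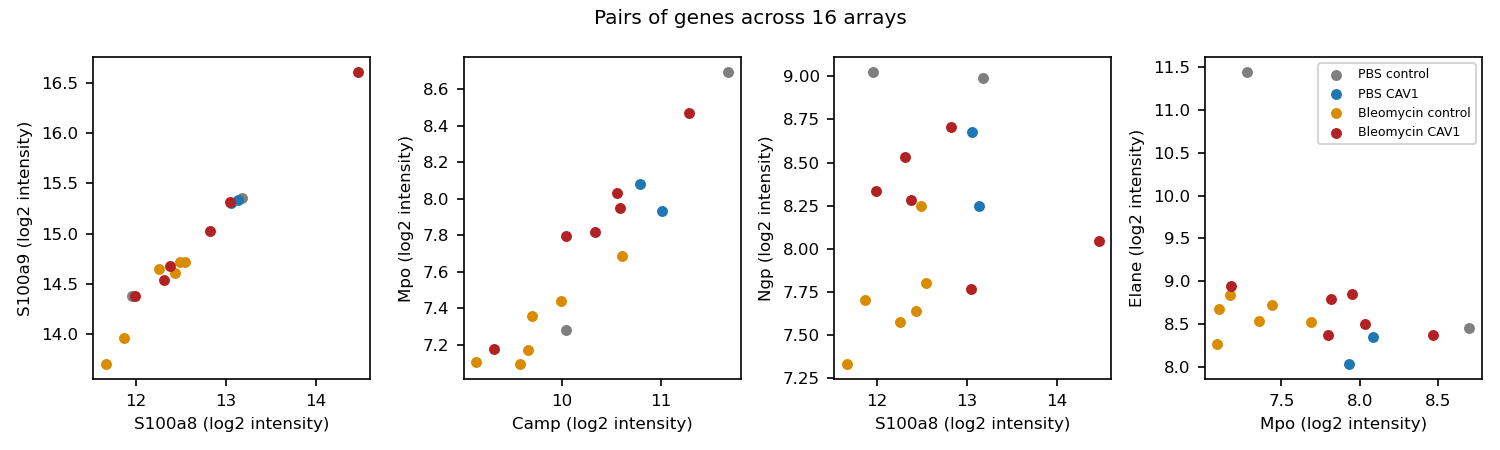
Log2 intensity of 4 pairs of genes in 16 arrays, coloured by group. S100a8 with S100a9 (r 0.988) and Camp with Mpo (r 0.946) lie along lines through all 4 groups, Ngp with S100a8 (r 0.207) does not, and Elane against Mpo has PBS control array 2 far above the rest.

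The genes whose pattern was most like that of a member were taken by Pearson r over 16 arrays, as a description. For Mpo these were Camp, then Ctsg, which encodes the primary granule protease cathepsin G (0.937), Slc43a1 (0.898), Itih5 (0.886) and Fam13a (0.873). For S100a8 they were S100a9, Stfa2l1 (0.911), Ccndbp1 (0.891), Stfa2 (0.890) and Tent5c (0.889). For Cxcr2 they were Stfa2l1 (0.938), Stfa2 (0.892), S100a9, S100a8 and Slfn4 (0.867), where Stfa2 and Stfa2l1 belong to the stefin A family of protease inhibitors. For Ngp they were Rgs12 (0.841), Prg2, the major basic protein of eosinophil granules (0.808), Cldn15 (0.795), Tubb1, a tubulin of platelets (0.787), and Taz (0.785). None of the 5 genes nearest to Ngp was among the 9.

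Further neutrophil genes were read from 5 lists. Of 7 other primary granule genes, 2 rose after bleomycin under the control blocker, Ctsc (0.59, adjusted p 0.0323), the protease that activates granule enzymes, and Cd63 (0.60, adjusted p 0.0469), a granule membrane protein, and the list's median was 0.01. Both are made by many other cells. Prtn3, a neutrophil protease, was at -0.18 (adjusted p 0.366). Averaged over blockers the same 2 genes were called (Ctsc 0.54, adjusted p 0.00368, Cd63 0.48, adjusted p 0.0129). Ctsc kept the averaged call in 16 of 16 fits with 1 array left out and Cd63 in 13, and under the control blocker they kept it in 11 and 4, with adjusted p of 0.228 and 0.429 without PBS control array 2.

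Of 14 secondary and tertiary granule genes, 2 rose under the control blocker, Adam8, a membrane protease (0.92, adjusted p 0.0197), and Cyba, a subunit of the oxidase (0.54, adjusted p 0.0412), with a list median of -0.15. Both calls were lost without PBS control array 2 (adjusted p 0.251 and 0.228), Cyba being called in 5 of 16 such fits and Adam8 in 15. Averaged over blockers 3 rose, Lcn2, an iron-siderophore binding protein that airway epithelium also makes (1.29, adjusted p 0.0104), Adam8 (0.60, adjusted p 0.0103) and Cyba (0.46, adjusted p 0.00794). These calls held in 15, 14 and 16 of the 16 fits with 1 array left out. Lcn2 had an adjusted p of 0.0658 without PBS CAV1 array 1, and Adam8 one of 0.0548 without PBS control array 2 and of 0.0573 without PBS CAV1 array 2. Lcn2 thus rose while Ltf, Camp and Ngp, its neighbours in the secondary granule, did not.

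Of 19 measured genes of the mature surface and cytosol, 1 rose and 1 fell under the control blocker. Clec4d, a C-type lectin receptor also present on macrophages, rose by 0.99 (adjusted p 0.0166), and Fpr2, a formyl peptide receptor, fell by 1.01 on the log2 scale (adjusted p 0.034). Averaged, 3 rose, Clec4d (1.12, adjusted p 0.000252), Wfdc21 (0.42, adjusted p 0.0217) and Lrg1 (0.76, adjusted p 0.0455), and Fpr2 fell by 0.79 (adjusted p 0.00883), with a list median of 0.01. Clec4d and Fpr2 kept the averaged call in 16 of 16 fits with 1 array left out, Wfdc21 in 14 and Lrg1 in 4. The Lrg1 adjusted p was up to 0.268 and that of Wfdc21 up to 0.134. Under the CAV1 blocker Clec4d alone rose in the 5 lists (1.25, adjusted p 0.00948), and this call was lost without PBS CAV1 array 2 (adjusted p 0.0901). Under the control blocker the calls of Clec4d and Fpr2 were lost without PBS control array 2 (adjusted p 0.154 and 0.215).

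No gene of the 11 granulopoiesis factors or of the 6 CXCR2 ligands was called in any comparison with all 16 arrays. Gfi1, a repressor needed for granulocyte development, was at -0.45 under the control blocker (adjusted p 0.452). Without PBS control array 2 it was at -1.24 there and at -0.78 averaged. Fits without a PBS array are given here by the value alone, whether called or not, since the group is then a single array. Il17ra was at -0.33 under the control blocker (adjusted p 0.39), and at -0.68 without PBS control array 1. Cebpe, a factor of secondary granule genes, was at -0.32 averaged (adjusted p 0.158), and Cebpd at 0.46 (adjusted p 0.222). Among the ligands Cxcl5 was at 0.83 under the control blocker (adjusted p 0.054) and Cxcl1 at 0.71 (adjusted p 0.0945). Without PBS control array 1 Cxcl5 was at 0.96 there. Cxcl1 was called there without bleomycin control array 4 (adjusted p 0.0305). Averaged, Cxcl1 was called higher without bleomycin CAV1 array 1 (adjusted p 0.0356) and without bleomycin control array 4 (0.0162), and Ppbp lower without bleomycin CAV1 array 1 (0.0362). The Cxcl5 interaction was -1.27 (SE 0.30, adjusted p 0.497). It was -1.78 without PBS CAV1 array 1 and -1.40 without PBS control array 1. With the CAV1 against the control blocker after bleomycin, none of the 57 genes tested in the 5 lists was called, and the list medians lay between -0.09 and 0.11, below the 0.56 of the 9 genes. In that comparison Fpr2 was at 0.53 (adjusted p 0.167, and 0.0119 without bleomycin CAV1 array 4), Fpr1 at 0.54 (adjusted p 0.378), Ctsg at 0.45 (adjusted p 0.48) and the platelet chemokine Ppbp at 0.57 (adjusted p 0.207). After PBS no list gene was called with all 16 arrays, with Cxcr1 at -1.13 (adjusted p 0.175) and Cxcl5 at 0.92 (adjusted p 0.22). Without PBS control array 1 Cxcl5 was at 1.05, and Cd177, Chil1, Cybb, Lrg1, Il17ra and Spi1 were between -2.21 and -0.72. Cxcl5 was at 1.43 without PBS CAV1 array 1, and Ms4a3 at 1.39 without PBS CAV1 array 2.

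**Figure D5:**
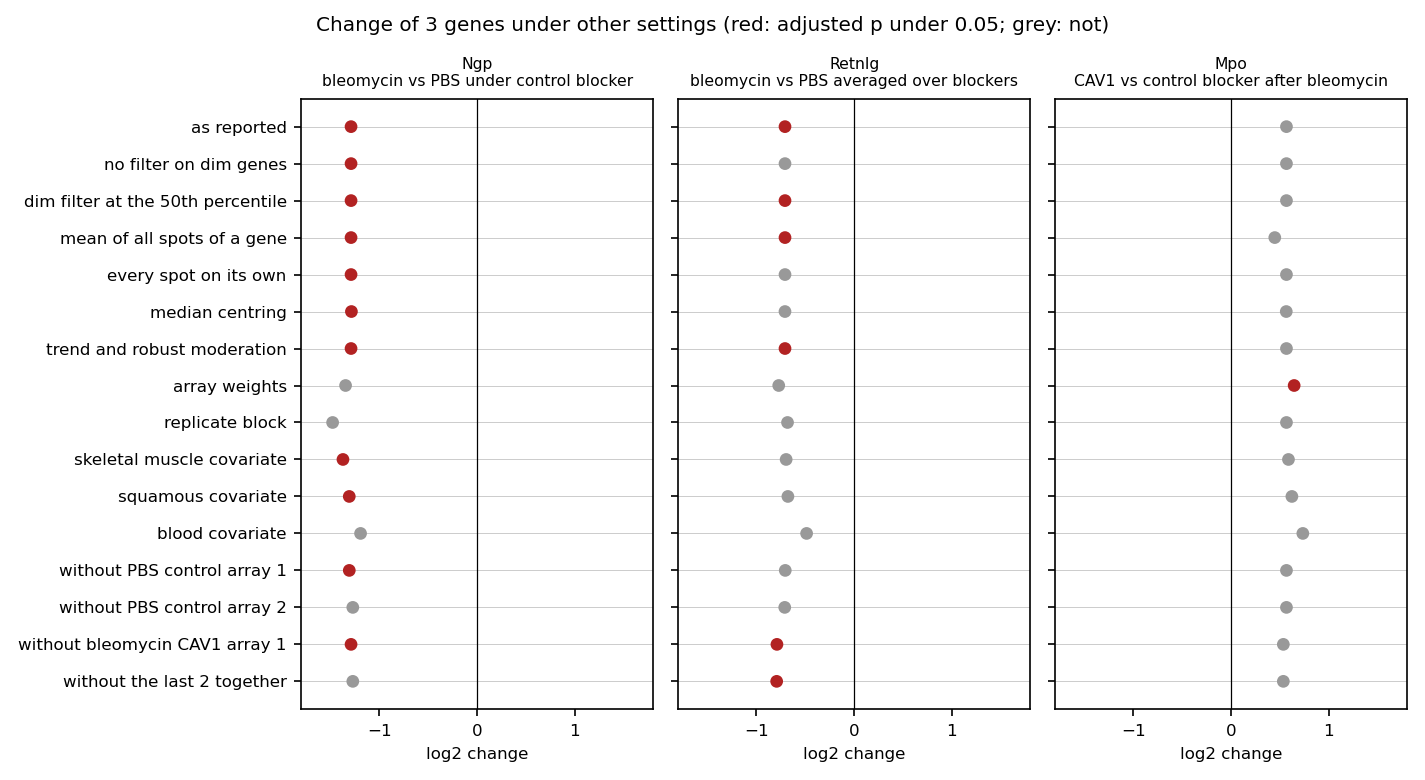
Log2 change of Ngp under the control blocker, Retnlg averaged over blockers and Mpo with the CAV1 against the control blocker after bleomycin, each under the reported fit and 15 other settings, with red points for an adjusted p under 0.05. The Ngp change stays between -1.48 and -1.19 while its call comes and goes, Retnlg is called in a minority of the fits, and Mpo is called only with array weights.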

How the data were processed

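Total RNA of whole lung was measured on 16 single-colour (Cy3) Agilent arrays, 1 per sample. The deposited values are log2 intensities, made with limma per the submitters' processing notes (version not given). Background correction, normalization and scanner are not given in the sources used here, and no marks of detection or saturation were used. All arrays had nearly the same distribution, and no values were changed. Spots were named through the array annotation and RefSeq accessions (29036 of 31465 named spots matched), and the spot with the highest mean stood for a gene. The 20304 genes that exceeded the 25th percentile of 2 or more arrays were tested. A mean per group was fitted with limma 3.58.1 on R 4.3.3 (lmFit, eBayes, 12 residual degrees of freedom, two-sided), and a gene was called at a Benjamini-Hochberg adjusted p under 0.05. In all, 6 comparisons were made, as contrasts of that fit, which was tested on simulated data. Correlations used 100000 permutations. Alternatives covered the dim filter, spots, normalization, moderation, array weights, samples in the fit, the replicate number as a block, marker covariates, a log2 minimum, and each array left out. The genes, lists and rules were chosen with earlier results of these data known. Named genes are all members, the called genes of 5 neutrophil lists and up to 3 with the smallest p, and the 5 genes most like Ngp, S100a8, Cxcr2 and Mpo.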

Additional observations from a re-analysis of the deposited data

How the results depend on the processing

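The count of called genes among the 9 was 1 under the control blocker, 2 averaged over blockers and 0 in the other comparisons. Averaged, it was 1 with no dim filter, with every spot on its own, with median centring and with the muscle or squamous covariate. It was 0 with array weights, the replicate block, the blood covariate or a log2 minimum of 1. Under the control blocker it was 0 with array weights, the replicate block, the blood covariate and the 2 arrays left out together. Under the CAV1 blocker it was 1 with array weights and with the 2 arrays left out (Retnlg), and for the blockers after bleomycin 1 with array weights (Mpo 0.64, adjusted p 0.0165). With 1 array left out the counts ran from 0 to 3 averaged, 0 to 2 under the control blocker and 0 to 1 in the others. No called value changed sign, and 37 of 792 values under other settings and 46 of 864 with 1 array left out changed sign while uncalled. The causes were not tested. Whether the replicate numbers pair the samples could not be settled. Correlations of deviations in the 6 bleomycin pairs ran from -0.69 to 0.35, with 1 of 6 best with its own number. The negative ones were numbers 2, 3 and 6 (-0.34, -0.69 and -0.52), in each of which 1 array was low in squamous and muscle markers. Numbers 1, 4 and 5 were at 0.27, 0.15 and 0.35. With the replicate block Ngp was at -1.48 under the control blocker (adjusted p 0.0874).

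Calls over all genes moved too. Under the control blocker the count of 489 became 0 with array weights or the blood covariate, 1 with the replicate block, 115 with the log2 minimum, 215 with the compared groups alone, 236 and 288 with the muscle and squamous covariates, and 288 with the 2 arrays left out. Under the CAV1 blocker 105 became 0 with the compared groups alone or the block, 7 and 10 with the squamous and muscle covariates, 39 with the log2 minimum, 164 with the 50th percentile, 225 with the blood covariate, 1172 without the 2 arrays and 2712 with array weights. Averaged, 1204 became 9 with the block, 108 with the log2 minimum, 156 with the blood covariate, 367 with array weights and 1966 without the 2 arrays. For the blockers after bleomycin 327 became 29 (log2 minimum), 113 (blood), 212 (block), 593 (array weights) and 955 (spots), and after PBS 63 became 2 (array weights), 3 (compared groups), 4 (muscle), 5 (squamous), 14 (block), 23 (log2 minimum), 39 (blood), 201 (2 arrays) and 267 (spots). The interaction had 42 without the 2 arrays. With 1 array left out the control blocker count ran from 92 to 4076, the CAV1 blocker count from 10 to 719, the averaged count from 386 to 1923, those for the blockers from 249 to 394 after bleomycin and from 34 to 4034 after PBS, and the interaction from 0 to 3019. The fit to the compared groups alone was not run for the average and the interaction, which use all groups.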

Other observations

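The nearest genes of the remaining members were looked up after the values were seen, again by Pearson r over 16 arrays and as a description. For Elane they were Msi1 (0.985), Map9 (0.980), Baiap2l2 (0.966), Krtap10-10 (0.961) and Gm567 (0.955), and none of them is a member or a gene of the neutrophil lists. Elane stood at 11.45 in PBS control array 2 and at no more than 8.94 elsewhere, so these r values lean on that single array. Likeness to Elane over the remaining arrays was not examined. For Camp they were Mpo, Ctsg (0.900), Zfp879 (0.869), Slc43a1 (0.850) and Cd1d1 (0.844). For Retnlg they were Xpnpep2 (0.908), Pon1 (0.904), D630013G24Rik (0.903), Lefty2 (0.900) and Gstm1 (0.899), and for Ltf they did not pass 0.766 (Tas2r103).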
